A study of Mus musculus with 6 samples.

Results

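The myotubularins are a family of lipid phosphatases and phosphatase-like proteins of the endosome and autophagosome membrane. Expression of 10 of them, Mtm1, Mtmr1, Mtmr2, Mtmr3, Mtmr4, Mtmr6, Mtmr7, Mtmr9, Mtmr12 and Mtmr14, was compared between Dicer KO and Dicer WT mouse CD4 T cells. The members were taken by gene symbol from the array annotation, and all 10 had at least 1 row that names 1 gene, giving 11 of the 28815 rows of the table and 10 of its 19935 genes. They were chosen by family after the difference of Mtmr9 in this same comparison was known. Their values are therefore a description of the comparison, and no test of them is offered as support.

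Cells sorted as CD4+CD62L- from lymph nodes were measured on 1-colour MoGene 1.0 ST arrays. Dicer KO samples (n = 3) came from CD4Cre pos Dicer lox/lox animals, in which Cre driven by the Cd4 gene's control elements cuts loxP-flanked Dicer. Dicer WT samples (n = 3) came from CD4Cre neg Dicer lox/lox animals, which carry the same alleles without Cre. No treatment was given, and the labels name no age or strain of the animals. The series' design text calls the samples biological replicates. Cd4 is switched on in the thymus, so such a Cre acts before the cells reach the lymph node. The single row of Dicer1 read 0.21, -0.02 and -0.09 on Dicer KO 1 to 3 and 0.12, 0.02 and -0.10 on Dicer WT 1 to 3. Which exons that row covers is not known here, so the genotypes rest on the labels.

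Each value is a deposited log value, read as base 2, shifted so that each row's median across the 6 arrays is 0. A value of 0 is thus the middle of a row's arrays, and where the genotypes do not overlap the inner arrays lie equally far from 0. In such a table differences between genotypes are kept and expression levels are not. A coarse trace of the level remained in the step size of the stored binary numbers. It put rows in a class that points to a level of 8 or more on the log scale on all arrays. A lower row can match that step by coincidence, and the rate of such errors was not measured. All 6 rows of T cell markers (Cd2, Cd28, Cd3d, Cd3e, Cd3g and Cd4) were in that class. Of the other marker lists, 0 of 7 rows of B cell, 0 of 6 of myeloid and 0 of 3 of NK cell markers were in it. It also held 1 of 2 rows of CD8 T cell markers (Cd8b1) and 1 of 3 of stroma markers (Pecam1). The T cell marker median was 0.10, 0.13 and 0.10 on Dicer KO 1 to 3 and -0.09, -0.06 and -0.15 on Dicer WT 1 to 3, so the genotypes did not overlap. The only marker of naive T cells with a row, Ccr7, was also in that class, at 0.32, 0.41 and 0.26 on Dicer KO 1 to 3 and -0.26, -0.28 and -0.41 on Dicer WT 1 to 3. The median of the B cell markers was 0.06, 0.05 and 0.08 on Dicer KO 1 to 3 and -0.56, 0.02 and -0.22 on Dicer WT 1 to 3, so Dicer WT 1 and Dicer WT 3 were low. The NK cell marker median was 0.0046, 0.11 and -0.0046 on the Dicer KO arrays and -0.08, -0.08 and -0.09 on the Dicer WT arrays. The part of these shifts in the differences below was not tested. In RNA from a sorted population, a change in the mix of cells and a change in RNA per cell cannot be told apart.

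Myotubularins remove the phosphate at the 3-position of phosphatidylinositol 3-phosphate (PI3P) and of phosphatidylinositol 3,5-bisphosphate (PI(3,5)P2). PI3P is made on early endosomes and autophagosomes, where it recruits proteins with FYVE, PX or related domains, and PI(3,5)P2 marks later endosomes and lysosomes. Several family members have lost the catalytic residues, and these inactive proteins bind active members and alter their activity or location. In human CD4 T cells, MTMR6 is known to restrain the potassium channel KCa3.1 by removing PI3P.

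Mtmr9 stood apart from the rest of the family. It encodes an inactive member that binds Mtmr6 and Mtmr7 and raises their activity. Averaged over its 2 rows, Mtmr9 read 0.42, 1.41 and 1.11 on Dicer KO 1 to 3, against -1.42, -1.18 and -0.42 on Dicer WT 1 to 3. Every Dicer KO array was above every Dicer WT array, with a gap of 0.84 between Dicer KO 1 and Dicer WT 3, which lay closest to each other. The difference (log2, Dicer KO minus Dicer WT) was 1.99 ± 0.32 (SE, n = 3 per genotype), a 3.96-fold higher signal in Dicer KO. Over all 19935 genes, 9 had a larger positive difference.

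The rows of Mtmr9 carry different transcript annotations. The RefSeq row, annotated with a RefSeq messenger RNA and other cDNA records, read 0.48, 1.34 and 1.04 on Dicer KO 1 to 3 and -1.54, -1.13 and -0.48 on Dicer WT 1 to 3. The AK row, annotated with 2 cDNA clones and no RefSeq transcript, read 0.35, 1.47 and 1.18 on the Dicer KO arrays and -1.30, -1.24 and -0.35 on the Dicer WT arrays. Both rows put the arrays of each genotype in the same order, and their differences were 2.00 ± 0.31 and 1.97 ± 0.35 (SE). By its step, the RefSeq row was in the class at 8 or more, and the AK row was not.

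Mtmr9 also varied widely among arrays of one genotype. The range was 0.99 on the log2 scale among Dicer KO arrays and 1.01 among Dicer WT arrays. The within-genotype SD, pooled over both genotypes, was 0.52, which ranked 33 among all genes. For the other members it lay between 0.05 and 0.16, and the median over all genes was 0.08.

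**Figure D1:**
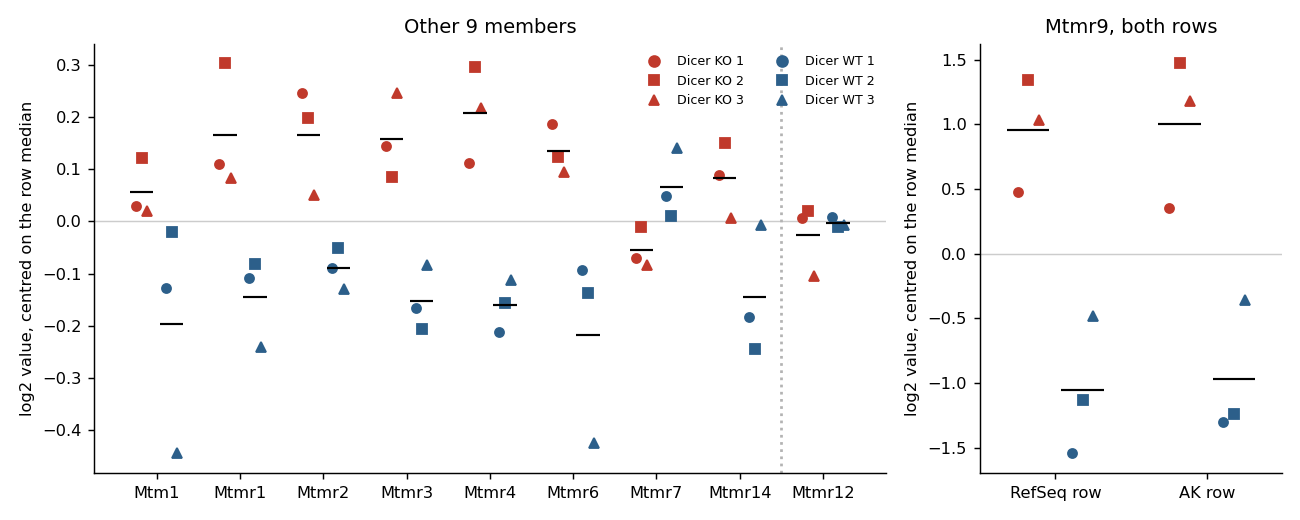
Values of the 10 members on each array, as log2 values centred on the median of the row, with Dicer KO in red left of Dicer WT in blue, a symbol per array and a bar at each mean (n = 3). The right panel shows the RefSeq row and the AK row of Mtmr9 on a wider scale, where the Dicer KO arrays lie between 0.35 and 1.47 and the Dicer WT arrays between -1.54 and -0.35; in the left panel the dotted line sets the inactive member Mtmr12 apart from the active phosphatases.

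In the limma fit over all genes, with Benjamini-Hochberg adjustment and a threshold of adjusted p 0.05, 3 of the 10 members lay past the threshold, all higher in Dicer KO, and 0 were lower. Over all genes 5.94% were called higher and 2.79% lower. At an unadjusted p under 0.05 the limma count was 8 members, all higher, where 12.1% of all genes were higher and 9.40% lower at that threshold. Because Mtmr9 led to the choice of the family, nothing is read from these counts. The called members were Mtmr3, Mtmr4 and Mtmr9. Without Dicer KO 2, 0 members were called, and the difference of Mtmr9 was then 1.77 ± 0.34. Without Dicer WT 1 or without Dicer WT 2, 1 was called, namely Mtmr9, and without Dicer KO 1 the count was 2 (Mtmr4 and Mtmr9). Array weights gave 7, quantile normalization 5 and the fit that dropped both arrays with low B cell markers, Dicer WT 1 and Dicer WT 3, 0 members, with a difference of 2.16 ± 0.37 for Mtmr9.

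Mtmr3 and Mtmr4 are active phosphatases that carry a FYVE domain, the zinc finger that binds PI3P. Mtmr4 acts on early and recycling endosomes. It read 0.11, 0.29 and 0.22 on Dicer KO 1 to 3 and -0.21, -0.16 and -0.11 on Dicer WT 1 to 3, a difference of 0.37 ± 0.06 or 1.29-fold. Its arrays did not overlap between genotypes, and the difference ran from 0.33 to 0.42 when any 1 array was left out. Mtmr4 was not called without Dicer KO 2, Dicer WT 1 or Dicer WT 2. Mtmr3, which also takes part in autophagosome formation, read 0.14, 0.08 and 0.25 on the Dicer KO arrays and -0.17, -0.21 and -0.08 on the Dicer WT arrays. Its difference was 0.31 ± 0.06, or 1.24-fold, and it ran from 0.27 to 0.35 with 1 array left out. Of those 6 fits, only the one without Dicer WT 3 called Mtmr3.

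Mtm1, Mtmr1 and Mtmr2 form the subgroup of classical myotubularins, and none of them was called. Loss of human MTM1 causes X-linked myotubular myopathy, and loss of human MTMR2 causes a demyelinating Charcot-Marie-Tooth neuropathy. Mtm1 and Mtmr1 lie next to each other on the X chromosome in RefSeq. Mtm1 read 0.03, 0.12 and 0.02 on Dicer KO 1 to 3, against -0.13, -0.02 and -0.44 on Dicer WT 1 to 3. The low value of Dicer WT 3 supplied much of the difference of 0.25 ± 0.11, which was 0.13 without that array. Mtmr1 read 0.11, 0.30 and 0.08 on the Dicer KO arrays and -0.11, -0.08 and -0.24 on the Dicer WT arrays, a difference of 0.31 ± 0.08. Mtmr2 read 0.25, 0.20 and 0.05 on Dicer KO and -0.09, -0.05 and -0.13 on Dicer WT, a difference of 0.25 ± 0.06. For all these genes the arrays of the genotypes were separated, by a gap of only 0.04 for Mtm1.

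Mtmr6 and Mtmr7 are the active partners of Mtmr9, and their differences had opposite signs. Mtmr6 read 0.19, 0.12 and 0.09 on Dicer KO 1 to 3, against -0.09, -0.14 and -0.42 on Dicer WT 1 to 3. Dicer WT 3 was the lowest array, the difference was 0.35 ± 0.09, and it was 0.25 without that array. Mtmr7 read -0.07, -0.01 and -0.08 on Dicer KO and 0.05, 0.01 and 0.14 on Dicer WT, a difference of -0.12 ± 0.05, and was the sole member whose Dicer KO arrays all lay below its Dicer WT arrays. Neither partner was called.

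Mtmr14, an active phosphatase with a role in autophagy, and Mtmr12, an inactive partner of Mtm1 and Mtmr2, complete the set. Mtmr14 read 0.09, 0.15 and 0.01 on Dicer KO 1 to 3 and -0.18, -0.24 and -0.01 on Dicer WT 1 to 3. Its difference was 0.23 ± 0.08, with a gap of 0.01 between the genotypes, and it was called without Dicer WT 3 (difference 0.30). Mtmr12 read 0.01, 0.02 and -0.10 on Dicer KO and 0.01, -0.01 and -0.01 on Dicer WT. Its arrays overlapped, and its difference of -0.02 ± 0.05 ran from -0.05 to 0.02 with 1 array left out.

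The RefSeq promoter table (GRCm38.p6) held windows of 300 bases around a gene's start for 6 of the 10 members, Mtm1, Mtmr1, Mtmr2, Mtmr6, Mtmr12 and Mtmr14. The windows below belong to a member with the arrays apart and the larger difference (Mtmr6), one at the edge of overlap (Mtmr14) and one whose arrays overlapped (Mtmr12). Capitals mark matches on either strand to the CCAAT box (CCAAT) and to an ETS factor element (CCGGAAGT). The windows are chr14:60264955-60265254, chr6:113237593-113237892 and chr15:12204778-12205077, all on the plus strand.
Mtmr6: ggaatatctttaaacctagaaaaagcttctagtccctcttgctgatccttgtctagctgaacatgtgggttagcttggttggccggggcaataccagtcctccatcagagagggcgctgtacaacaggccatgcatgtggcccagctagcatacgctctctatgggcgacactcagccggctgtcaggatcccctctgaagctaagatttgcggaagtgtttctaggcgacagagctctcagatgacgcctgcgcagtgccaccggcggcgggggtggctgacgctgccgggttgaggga
Mtmr14: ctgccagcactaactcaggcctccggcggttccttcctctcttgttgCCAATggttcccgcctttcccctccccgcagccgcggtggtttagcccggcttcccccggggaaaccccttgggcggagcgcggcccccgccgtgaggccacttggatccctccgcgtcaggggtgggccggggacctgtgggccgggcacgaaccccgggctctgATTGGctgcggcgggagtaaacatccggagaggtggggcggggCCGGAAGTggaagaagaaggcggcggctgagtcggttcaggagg
Mtmr12: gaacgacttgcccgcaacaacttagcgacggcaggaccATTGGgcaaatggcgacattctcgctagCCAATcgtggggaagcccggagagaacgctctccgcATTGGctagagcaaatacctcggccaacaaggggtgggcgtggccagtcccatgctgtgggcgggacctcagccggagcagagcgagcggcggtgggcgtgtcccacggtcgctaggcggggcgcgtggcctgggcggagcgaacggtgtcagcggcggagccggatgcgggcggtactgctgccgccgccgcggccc

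The Mtmr12 window held 3 CCAAT matches, the Mtmr14 window 2 and the Mtmr6 window 0. The ETS element occurred once, in Mtmr14. Of the 10 windows of the 6 members, 4 held a CCAAT box and 1 the ETS element. Among those 4 are overlapping windows of Mtm1 that share a match. Over all 32851 windows of the table, 37.4% held a CCAAT box and 3.89% the ETS element. The core of the interferon-stimulated response element, GAAANNGAAA, also searched on both strands, was in 0 of the 10 member windows and in 3.44% of all windows. GC content was 56.7% for Mtmr6, 69.7% for Mtmr14 and 68.7% for Mtmr12. A match describes the letters of a window and does not show that a factor binds there.

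Across the family, the median difference of the 10 members was 0.28, or 0.25 without Mtmr9, against -0.01 over all genes. In 8 members every Dicer KO array lay above every Dicer WT array and in 1 every array lay below, where 13.5% and 12.7% of all genes did so. These shares describe members chosen with the comparison known. The step of the stored numbers moved with the calls. Among the 3003 genes with every row in the class at 8 or more, 21.6% were called higher and the median difference was 0.12. Among the remaining 16932 genes 3.17% were called higher and the median was -0.02. Mtmr3, Mtmr6, Mtmr12 and Mtmr14 belonged to the 3003 genes, and the part of this class in their differences was not tested.

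Sbf1, Sbf2, Mtmr10 and Mtmr11 are inactive relatives outside the 10 members. Of these 4 genes, 1 was called higher and 2 lower, where 5.94% of all genes were called higher and 2.79% lower. Sbf1 and Sbf2 each bind Mtmr2, and both are large proteins with a DENN domain that acts on Rab GTPases. Sbf1 read 0.20, 0.15 and 0.07 on Dicer KO 1 to 3 and -0.17, -0.07 and -0.28 on Dicer WT 1 to 3, and it rose by 0.31 ± 0.07 (limma adjusted p = 0.0384). Sbf2 read -0.07, -0.08 and -0.22 on Dicer KO and 0.14, 0.19 and 0.07 on Dicer WT, and it fell, with a difference of -0.26 ± 0.06 (limma adjusted p = 0.0482). Sbf1 and Sbf2 thus passed in opposite directions, while Mtmr12, the partner of Mtmr2 among the members, did not pass. Mtmr10 fell, at -0.07, -0.16 and -0.15 on Dicer KO against 0.26, 0.26 and 0.07 on Dicer WT, a difference of -0.32 ± 0.07 (limma adjusted p = 0.0279). Mtmr11, at 0.11, -0.03 and -0.01 on Dicer KO and 0.07, -0.01 and 0.01 on Dicer WT, did not pass (0.00 ± 0.06, limma adjusted p = 0.987). With 1 array left out, Sbf2 was called in 0 of 6 fits (limma adjusted p 0.054 to 0.146), Sbf1 only without Dicer KO 3 or Dicer WT 2 (0.0429 to 0.135) and Mtmr10 only without Dicer KO 1 or Dicer WT 3 (0.0126 to 0.112).

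**Figure D2:**
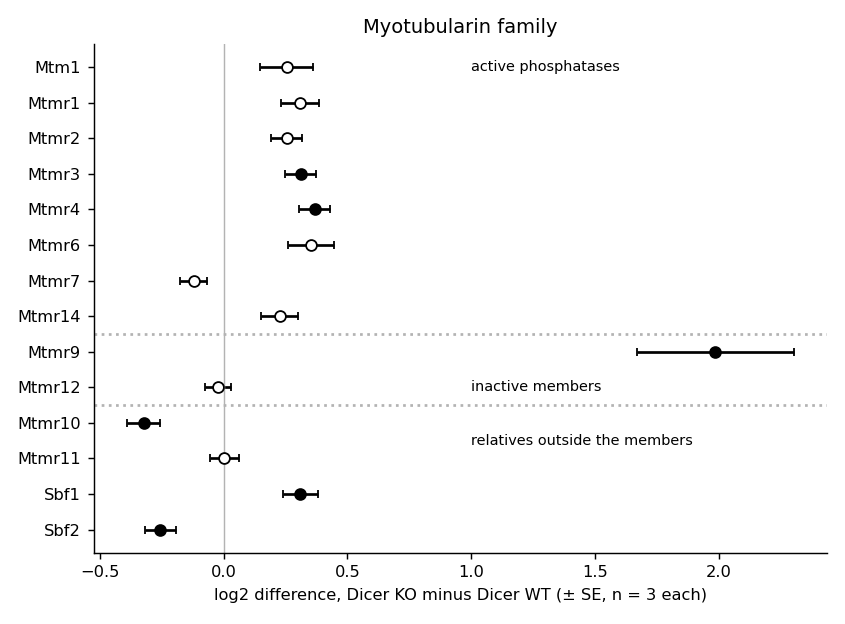
Difference between Dicer KO and Dicer WT on the log2 scale, Dicer KO minus Dicer WT (x axis) for each myotubularin gene (y axis), with the SE of the fit as the bar (n = 3 per genotype). Filled points lay past adjusted p 0.05 over all genes. Mtmr9 lies at 1.99 and the other members between -0.12 and 0.37, while the relatives Mtmr10 (-0.32) and Sbf2 (-0.26) are below 0.

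The genes beside Mtmr9 on chromosome 14 had far smaller differences. Of the 6 protein-coding genes on each side in RefSeq order, 11 had a row, and their differences ran from -0.37 to 0.16 with a median of 0.00. Among them 0 were called higher and 1 lower, where 5.94% of all genes were called higher and 2.79% lower. The lower one was Fdft1, the squalene synthase of sterol synthesis (-0.34 ± 0.06, limma adjusted p = 0.0164). At an unadjusted p under 0.05 the limma count was 4, Blk higher and Fdft1, Pinx1 and Rp1l1 lower, where 12.1% of all genes were higher and 9.40% lower. Fdft1 was not called without Dicer KO 2, Dicer WT 1 or Dicer WT 2 (limma adjusted p 0.0303 to 0.0604 with 1 array left out). Xkr6, the next measured neighbour, read 0.01, 0.11 and 0.10 on Dicer KO 1 to 3 and -0.04, -0.01 and -0.03 on Dicer WT 1 to 3, a difference of 0.10 ± 0.05. Blk, a kinase gene of B cells that lies close by, had a difference of 0.16 ± 0.06 (limma adjusted p = 0.139). These neighbours were looked up after the value of Mtmr9 was known.

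**Figure D3:**
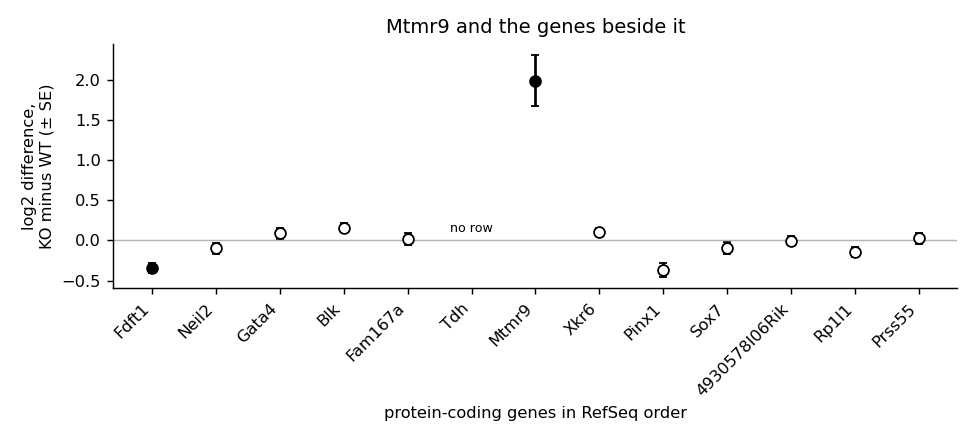
Difference between Dicer KO and Dicer WT on the log2 scale, Dicer KO minus Dicer WT (y axis, ± SE, n = 3 per genotype) for Mtmr9 and the 6 protein-coding genes on each side in RefSeq order (x axis). Filled points lay past adjusted p 0.05 over all genes. Mtmr9 lies at 1.99 and the 11 neighbours with a row between -0.37 and 0.16.

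Genes with an array pattern like that of Mtmr9 were ranked by Pearson correlation over the 6 arrays among 18275 named genes. The 5 most alike were Wdr78, Ddb1, Copa, Pmm2 and Yipf4, with r from 0.99 to 1.00 and differences between 0.16 and 0.45, all smaller than that of Mtmr9. The arrays share the genotype split, so a high r is common: 4.27% of genes reached 0.9. Mtmr4 had r = 0.99 with Mtmr9, and 26 genes had a higher one, while Mtmr6 had r = 0.62 and Mtmr7 r = -0.56. After each genotype's mean was subtracted, the 5 most alike were Tma7, Hoxa3, Zc4h2, Cdca4 and Olfr510, each with a difference below 0.21 in size. Within genotypes Mtmr4 kept r = 0.93 with Mtmr9, while Mtmr6 had r = -0.84 and Mtmr7 r = 0.76, of opposite sign to its r over the arrays. The share of all genes with such an r within genotypes is not given here. These correlations are descriptions over 6 arrays.

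Among the enzymes that make the substrates of the myotubularins, the genes that rose encode parts of the class III kinase complex. Of 13 genes of PI3P synthesis, 3 rose (23.1%, where 5.94% of all genes did) and 0 fell. The list median was 0.05, and it was 0.0045 without Dicer KO 2, -0.0001 without Dicer WT 3 and 0.10 without Dicer WT 2. Uvrag, the subunit that directs the complex to endosomes, read 0.21, 0.33 and 0.29 on Dicer KO 1 to 3 and -0.21, -0.22 and -0.25 on Dicer WT 1 to 3. It rose by 0.50 ± 0.05 (limma adjusted p = 0.0027), and was called with any 1 array left out. Pik3c3, the catalytic subunit, rose by 0.32 ± 0.07 (limma adjusted p = 0.0385) and Pik3r4, its regulatory subunit, by 0.22 ± 0.05 (limma adjusted p = 0.0374). With 1 array left out, Pik3c3 was called only without Dicer KO 3 or Dicer WT 3 (limma adjusted p 0.0248 to 0.144). Pik3r4 was called in 0 of those 6 fits (0.0633 to 0.136). Becn1, on the same list, did not pass (0.05 ± 0.07, limma adjusted p = 0.739) and was singled out after its value was seen. Atg14, which directs the complex to autophagosomes in place of Uvrag, did not pass (-0.29 ± 0.11, limma adjusted p = 0.182; singled out after its value was seen). Of 3 genes of PI(3,5)P2 synthesis, 0 passed, where 5.94% of all genes were called higher and 2.79% lower. Fig4 was at 0.19 ± 0.07 (limma adjusted p = 0.133) and Vac14 at -0.15 ± 0.07 (0.288). At an unadjusted p under 0.05 the limma count was 1, Fig4, where 12.1% of all genes were higher and 9.40% lower.

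Proteins that bind these lipids included the largest differences among the pathway genes. Of 30 effectors, 6 rose and 0 fell, where 5.94% of all genes were called higher and 2.79% lower. The median difference of the effectors was 0.10, against -0.01 over all genes. Sgk3, a kinase with a PX domain that is activated on endosomes, read 0.29, 0.48 and 0.47 on Dicer KO 1 to 3, against -0.54, -0.29 and -0.65 on Dicer WT 1 to 3, and rose by 0.91 ± 0.10, or 1.87-fold (limma adjusted p = 0.0035). Tpcn1, an ion channel of endosomes and lysosomes, read 0.38, 0.34 and 0.32 on Dicer KO and -0.48, -0.53 and -0.32 on Dicer WT, and rose by 0.79 ± 0.07, or 1.73-fold (limma adjusted p = 0.0013). Ankfy1, a FYVE protein of early endosomes, rose by 0.50 ± 0.06 (limma adjusted p = 0.0033) and Pxk, a PX domain protein, by 0.38 ± 0.05 (0.0055). All 4 were called with any 1 array left out. Wipi2, which reads PI3P on forming autophagosomes, rose by 0.33 ± 0.07 (limma adjusted p = 0.0254), and was called only without Dicer KO 3 of those 6 fits (0.0136 to 0.0914). Rbsn, a Rab5 effector with a FYVE domain, rose by 0.48 ± 0.11 (limma adjusted p = 0.0397) and was called only without Dicer KO 1 (0.0288 to 0.13).

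Other phosphoinositide phosphatases and the Rab cascade of endosomes showed 1 call each, both higher. These were 7.69% and 4.55% of the lists, near the 5.94% of all genes called higher, so nothing is read from the counts. Of 13 phosphatases, Inpp5a, which acts on soluble inositol phosphates, rose by 0.41 ± 0.09 (limma adjusted p = 0.0305), and with 1 array left out it was called only without Dicer KO 1 or Dicer WT 3 (0.0184 to 0.11). The list median was 0.00. Of 22 genes of the Rab5 and Rab7 cascade, Ccz1, a subunit of the exchange factor that activates Rab7, rose by 0.43 ± 0.08, or 1.35-fold (limma adjusted p = 0.0205). Its difference ran from 0.35 to 0.49 with 1 array left out, and it was not called without Dicer KO 1, Dicer KO 2 or Dicer WT 1 (limma adjusted p 0.0265 to 0.0776). Its list median was 0.03.

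For the channel that MTMR6 restrains in human cells, 5 genes were listed. Of these, 0 were called higher and 1 lower, where 5.94% of all genes were called higher and 2.79% lower. Kcnn4, which encodes KCa3.1, read 0.31, 0.09 and 0.10 on Dicer KO 1 to 3 and -0.10, -0.20 and -0.09 on Dicer WT 1 to 3. The arrays did not overlap, but the difference of 0.30 ± 0.07 did not pass (limma adjusted p = 0.0524; singled out after its value was seen). Nme2, a histidine kinase that activates the channel, fell, at -0.47, -0.29 and -0.15 on Dicer KO against 0.15, 0.18 and 0.34 on Dicer WT (-0.52 ± 0.09, limma adjusted p = 0.017). It was not called without Dicer KO 2 or Dicer WT 2 (0.0158 to 0.0706 over the 6 fits with 1 array left out), and its row may also bind transcripts of the similar gene Nme1. Phpt1, Trim27 and Pik3c2b did not pass.

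Counting Pik3c2b, which is on both the PI3P synthesis and the channel lists, once, 12 of the 89 pathway genes rose and 3 fell, or 13.5% and 3.37%, beside 5.94% and 2.79% of all genes. Of the 89, 26 belonged to the genes with every row in the class at 8 or more, and these supplied 6 of the 12 rises. Among all 3003 genes of that class 21.6% were called higher, and 6 of 26 is near that share. The median difference was 0.12 for the 26 genes and 0.12 for the 3003, so nothing is read from those 6 rises. The number called was 5 without Dicer KO 2, 6 without Dicer WT 1, 8 without Dicer WT 2 and 1, Tpcn1, when both arrays with low B cell markers (Dicer WT 1 and Dicer WT 3) were dropped.

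**Figure D4:**
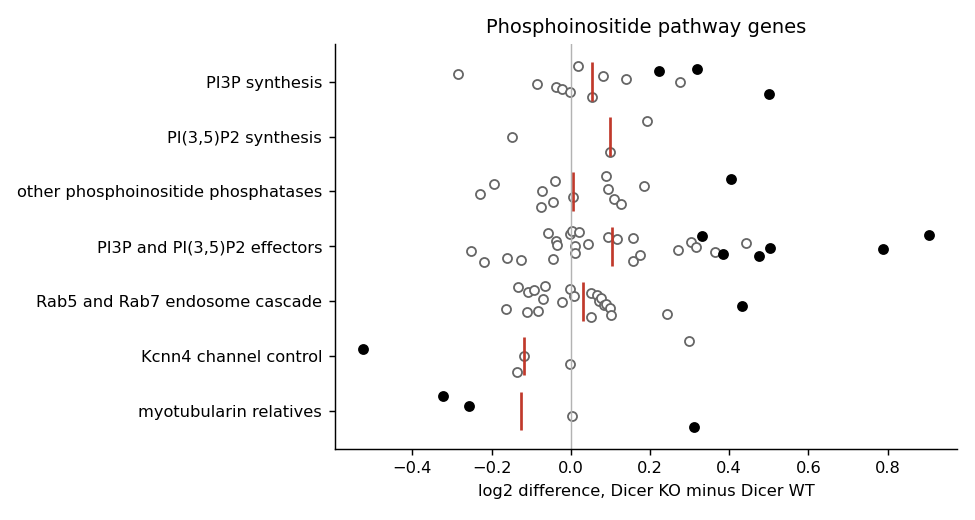
Difference between Dicer KO and Dicer WT on the log2 scale, Dicer KO minus Dicer WT (x axis) for each gene, grouped by pathway list (y axis), with the list median as a red bar. Filled points lay past adjusted p 0.05 over all genes (n = 3 per genotype). Sgk3 (0.91) and Tpcn1 (0.79) lie farthest to the right and Nme2 (-0.52) farthest to the left.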

How the data were processed

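The authors deposited 1 table of log values, used here as log2, for 28815 rows and 6 arrays. MAS5 is listed in the submitters' processing notes without a version or a role. With the log base, between-array normalization and genome build not given in the sources used here, every fold change assumes base 2. All rows were already centred on their median over the arrays, so the table holds no levels. Array medians lay between -0.0088 and 0.0063, and the number of arrays limits the precision.

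Rows with 1 gene symbol in the platform annotation (21780) were averaged to 19935 genes; 1605 rows with several symbols and 5430 with none were left out. Symbols were updated through RefSeq for 21689 rows. Genotypes were compared by moderated linear models (limma 3.58.1, run under R 4.3.3), and p-values were adjusted over all genes by Benjamini-Hochberg. Other steps used Python 3.11.15. P-values set the difference between genotypes against the spread among samples of one genotype, with the variance moderated over genes. A simulation used the same 19935 genes, of which 200 were changed, 50 at each size. Of genes changed by 0.25 on the log2 scale 14% were recovered, with 72% at 0.5, 92% at 1 and 100% at 2. In the data 1741 genes passed, which makes the adjusted threshold less strict, so these shares need not hold there.

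The members, pathway lists and neighbours were chosen with earlier results of these data known. The text names every member, the called genes of each list (at most 5 by lowest p, or the 2 lowest where none passed) and the 5 genes most like Mtmr9 by each correlation. Rbsn, Atg14, Becn1, Kcnn4, Phpt1, Trim27, Pik3c2b, Mtmr11 and the neighbours of Mtmr9 fall outside that rule and were named after their values were seen. Alternatives were array weights, a robust variance prior, a replicate block, centring, quantile normalization, the row with the largest variance, all rows, and leaving out each array. For genes with an overlapping or similar copy, such as Nme2, cross-hybridization is uncertain.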

Additional observations from a re-analysis of the deposited data

How the results depend on the processing

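Of 1741 genes past the threshold, leaving out 1 array gave 729 (without Dicer KO 2) to 1597, with 849 without Dicer WT 1 and 1050 without Dicer WT 2. The 3 called members became 0 to 4, and the 15 called pathway genes 5 to 11. The fit without both Dicer WT 1 and Dicer WT 3, chosen after seeing the data, gave 213 genes, 0 members and 1 pathway gene. Array weights called 7 members and quantile normalization 5. A fit with the replicate number as a block called 6 members, 2063 genes and 15 pathway genes. Deviations of arrays with the same number correlated at 0.27, -0.08 and 0.30, and those with other numbers ran from -0.37 to 0.23. These values do not settle whether the numbers pair the samples, and the main fit used genotype only. Among the 3 called members and the 15 called pathway genes, 0 changed sign under the alternatives run. With 1 array left out, the median difference ran from -0.0001 to 0.10 for PI3P synthesis, -0.02 to 0.17 for PI(3,5)P2 synthesis, -0.0049 to 0.05 for other phosphatases and -0.0083 to 0.04 for the Rab cascade, so the sign of these medians depended on single arrays. The cause of these shifts was not tested. Fits with fewer arrays have fewer degrees of freedom, which enter the calls but not the median differences. With 3 arrays per genotype, differences near 0.25 were mostly missed in simulated data with 200 changed genes. That share need not hold in the data, where more genes passed.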
